A study of Mus musculus with 3 samples.

Results

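The 10 genes described here have transcripts known to answer to stretch of muscle or to the coactivator YAP, and were examined in skeletal muscle of mice. They were taken by symbol and are Ankrd1, Ankrd2, Ankrd23, Xirp1, Xirp2, Csrp3, Flnc, Mustn1, Cyr61 and Ctgf, 10 of 24481 gene rows. Each of the 10 stood on 1 row, and all 10 passed the minimum level described below, as 7857 rows did. The study profiled messenger RNA from outbred mice of the ICR stock, taken on postnatal day 42. Its title names fatigue and the leaf of Sasa quelpaertensis, a bamboo of Jeju Island. There were 3 libraries, 1 per group, labelled as exercise with SQH, exercise control and control. The labels do not spell out SQH, its dose, the exercise, the muscle or whether animals were pooled. All 3 groups share the strain, the age and the tissue label.

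Levels below are the deposited log2 values of a 3' end library, in which the reads of a transcript do not grow with its length. A row was called higher or lower when the log2 difference reached 1 (2-fold) in either direction and the linear level, averaged over the 3 libraries, reached 66.5, the median of the 15714 rows above 0 in some library. With 1 library per group there is no replicate error and no p-value. The ± value beside a difference is a standard error from read counting alone and leaves out variation between animals and between preparations. The reads were estimated from the spacing of low values, at 12.4 M in the exercise plus SQH library, 8.12 M in the exercise control library and 10.8 M in the control library.

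Muscle fibres carry sensors of mechanical load in the spring region of titin, the Z-disc and the costamere. Ankrd1, Ankrd2 and Ankrd23 encode the muscle ankyrin repeat proteins, which bind the N2A region of titin and can enter the nucleus. YAP and its partner TAZ are coactivators that the Hippo kinases keep out of the nucleus. When load or a spread cell shape frees them, they join TEAD factors on DNA, and Cyr61, Ctgf and Ankrd1 are their most used reporter genes. Cyr61 and Ctgf, now named Ccn1 and Ccn2, encode secreted matrix-associated CCN proteins, which many cell types of muscle make besides the fibre.

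The letters GGAATG, the core of the TEAD binding sequence, were searched on both strands of the 250 bases before RefSeq gene starts in build GRCm38.p6. Of 32851 such windows, 12.6% held them. Windows were at hand for 8 members (11 windows), and 4 members held a match, in 4 windows. No window was at hand for Xirp1 or Ctgf, so these genes were not searched for any motif. The matches are shown because TEAD factors are the DNA-binding partners of YAP and because Cyr61 and Ankrd1, both YAP targets, were called in these libraries. Each stretch has 30 bases, is written on the gene's own strand and has the match in capitals.
Ankrd1, chr19:36120037-36120066, minus strand: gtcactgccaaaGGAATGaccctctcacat
Ankrd1, chr19:36119950-36119979, minus strand: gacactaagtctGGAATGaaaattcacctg
Ankrd23, chr1:36535842-36535871, minus strand: cccagtgggccaCATTCCcagaacggtatt
Flnc, chr6:29433140-29433169, plus strand: cgggccgggcggCATTCCtgggaggccggc
The matches of Ankrd1 began 210 and 123 bases before the RefSeq start, and GENCODE M21 places both inside an exon of a longer Ankrd1 transcript. Those of Ankrd23 and Flnc began 120 and 104 bases before 1 of the 2 RefSeq starts of each gene.

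The window of Cyr61 is given whole because this gene had the widest difference among the members. It held 1 TEAD match, which began 103 bases before the start, and TATAAA, searched on the gene's strand alone, which began 25 bases before it. Both are in capitals.
Cyr61, chr3:145649986-145650235, minus strand: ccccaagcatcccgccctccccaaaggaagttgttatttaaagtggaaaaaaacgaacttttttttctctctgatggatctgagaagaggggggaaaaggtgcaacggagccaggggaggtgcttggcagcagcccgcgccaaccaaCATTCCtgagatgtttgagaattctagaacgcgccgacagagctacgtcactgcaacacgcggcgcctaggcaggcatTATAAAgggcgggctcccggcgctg
TATAAA was also in the Ankrd2 window and in 7.59% of all windows. TGANTCA, the AP-1 sequence, was in the Xirp2 window and in 6.75% of all windows. The CArG box of the serum response factor SRF was in 0 of the 11 member windows and in 1.47% of all. No matches overlapped each other. A match says only that the letters are there.

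The muscle ankyrin repeat genes did not move as a family. Ankrd1, which is induced in muscle by stretch, injury and denervation, stood at 8.87 in the exercise plus SQH library, 7.36 in the exercise control library and 6.25 in the control library. It was thus highest with SQH and lowest in the control, and was called in all 3 comparisons. The difference was 1.11 ± 0.20 for exercise control against control, 1.52 ± 0.14 for exercise plus SQH against exercise control and 2.62 ± 0.17 for exercise plus SQH against control. The last was a 6.16-fold higher level, the 5th highest difference of the 7857 tested rows in that comparison. The 95% counting interval of exercise control against control, 0.71 to 1.504, held values below the 2-fold limit. Ankrd1 rested on about 612 reads with SQH, 138 in the exercise control and 80.9 in the control.

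Ankrd2 stood at 12.16 in the exercise plus SQH library, 10.87 in the exercise control library and 12.45 in the control library. In mouse muscle this gene is known for its preference for slow fibres and for its response to stretch. The exercise control was the low library and the other two lay close together. Ankrd2 was called lower in the exercise control than the control (-1.58 ± 0.04) and higher with SQH than in the exercise control (1.29 ± 0.04). With SQH it was 0.29 ± 0.03 below the control on the log2 scale, and not called. Slow-fibre markers moved with it. The summed level of 12 such markers was 18.76 with SQH, 15.59 in the exercise control and 19.10 in the control on the log2 scale, and their part in the Ankrd2 result was not tested.

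Ankrd23, a titin-binding relative linked to metabolic stress, stood at 13.30 in the exercise plus SQH library, 13.86 in the exercise control library and 14.07 in the control library. It was the only member with its lowest level in the SQH library. No comparison reached the limit. The differences were -0.21 ± 0.02 for exercise control against control, -0.56 ± 0.02 for exercise plus SQH against exercise control and -0.77 ± 0.02 for exercise plus SQH against control. Ankrd23 shares 2109 exonic bases with the gene model Gm42417 on its own strand, so reads of either cannot be told apart. The genes lie on chromosome 19 (Ankrd1 from 36111961 to 36120099, Ankrd2 from 42036000 to 42045110) and chromosome 1 (Ankrd23 from 36530188 to 36536883) in GRCm38, by GENCODE M21.

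**Figure D1:**
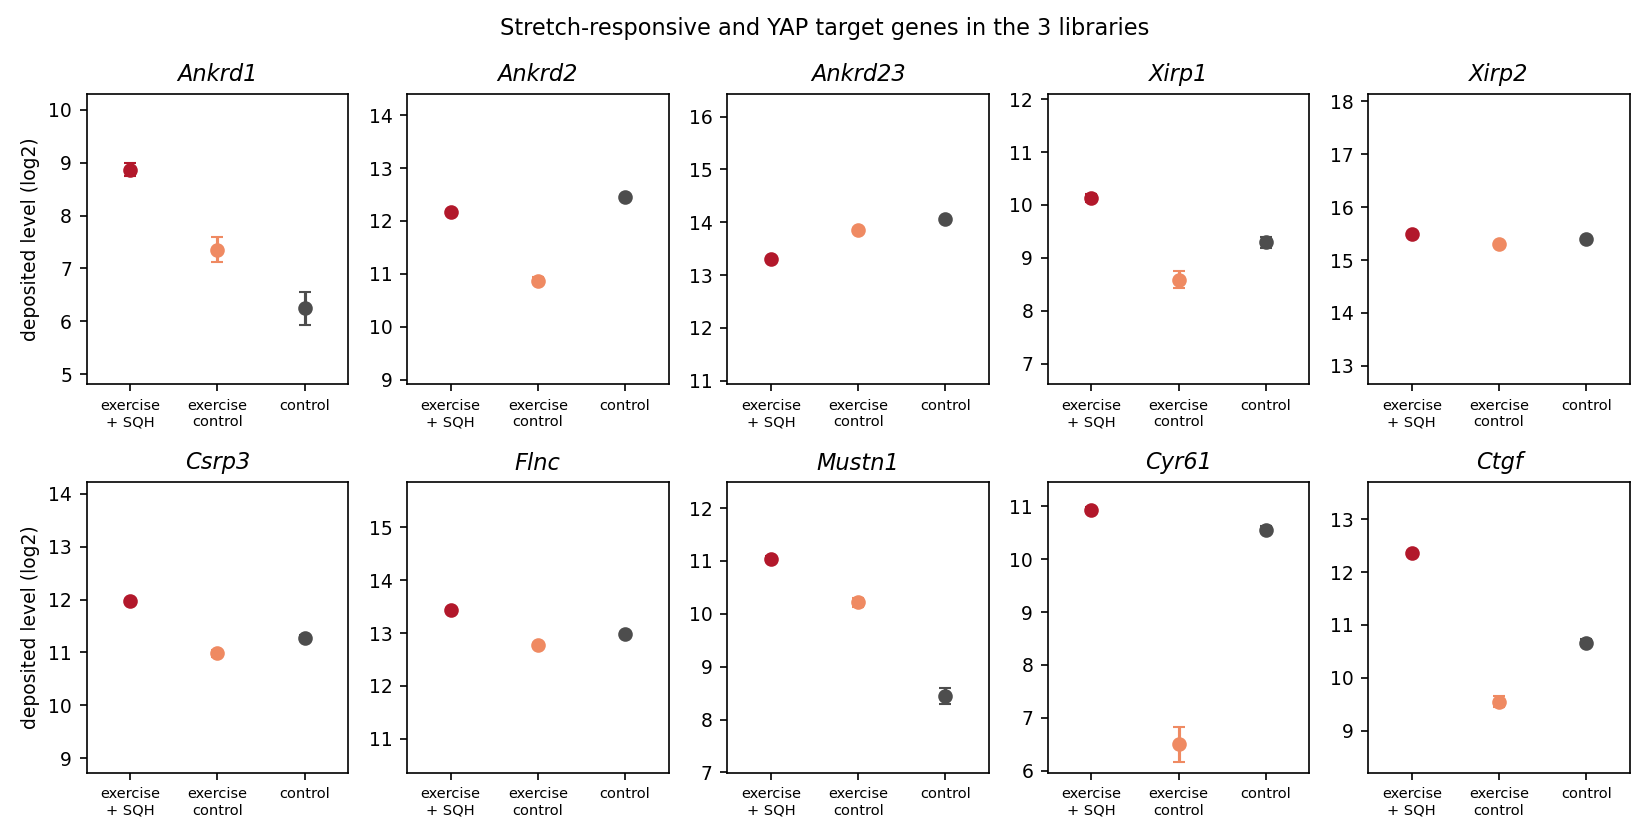
Deposited log2 level of each member gene (vertical axis) in the exercise plus SQH, exercise control and control libraries (1 point per library, bars the 95% counting interval, each panel spanning the same number of log2 units). Ankrd1 and Mustn1 were lowest in the control, whereas Cyr61, Ctgf, Ankrd2 and Xirp1 were lowest in the exercise control.

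The Xin genes encode actin-binding repeat proteins of the myotendinous junction and of sites of fibre repair. Xirp1 stood at 10.13 in the exercise plus SQH library, 8.59 in the exercise control library and 9.29 in the control library. It was called higher with SQH than in the exercise control (1.54 ± 0.09, or 2.91-fold). Against the control the exercise control lay at -0.70 ± 0.10 and SQH at 0.84 ± 0.07, neither of them called. Xirp2 hardly differed, at 15.50 with SQH, 15.30 in the exercise control and 15.39 in the control, with differences of -0.09, 0.20 and 0.11 in the 3 comparisons. Quantile normalization turned the sign of the Xirp2 difference between exercise control and control (0.10). Xirp2 shares 168 exonic bases with Gm13601 on the opposite strand. Xirp1 lies on chromosome 9 (120013755 to 120023598) and Xirp2 on chromosome 2 (67446002 to 67526614).

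Csrp3 and Flnc belong to the Z-disc. Csrp3, the muscle LIM protein, stood at 11.97 in the exercise plus SQH library, 10.98 in the exercise control library and 11.28 in the control library. Its difference between exercise plus SQH and exercise control, 0.98 ± 0.04, lay just short of the limit, and its counting interval, 0.90 to 1.06, crossed it. It differed by 0.69 ± 0.03 between exercise plus SQH and control and by -0.29 ± 0.04 between exercise control and control. Flnc, the muscle filamin, which crosslinks actin and gathers at damaged sarcomeres, stood at 13.44 with SQH, 12.77 in the exercise control and 12.99 in the control. Its differences were 0.67 ± 0.02 for exercise plus SQH against exercise control, 0.46 ± 0.02 for exercise plus SQH against control and -0.21 ± 0.02 for exercise control against control. Xirp1, Xirp2, Csrp3 and Flnc therefore shared an order, highest with SQH and lowest in the exercise control. Csrp3 lies on chromosome 7 (48830398 to 48848033) and Flnc on chromosome 6 (29433256 to 29461883). The relatives of these genes did not share their order. Csrp1 stood at 8.46, 8.29 and 8.78 and Csrp2 at 7.17, 7.34 and 7.40 in exercise plus SQH, exercise control and control. Flna, the filamin of most cell types, stood at 9.86, 10.18 and 10.14 in the same libraries. Csrp1, Csrp2 and Flna were not called in any of the 3 comparisons.

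Mustn1 encodes a small nuclear protein of the musculoskeletal system that is known to rise in muscle after loading. It stood at 11.04 in the exercise plus SQH library, 10.21 in the exercise control library and 8.45 in the control library. Both exercise libraries were above the control, and the SQH library was again the highest. The exercise control lay 1.77 ± 0.09 above the control, the 26th highest difference of all tested rows, and the SQH library 2.59 ± 0.08 above it, a 6.03-fold higher level that ranked next after Ankrd1 as the 6th highest. Between exercise plus SQH and exercise control the difference was 0.82 ± 0.05, short of the limit. Mustn1 lies on chromosome 14 (30879200 to 30881610). Of 5 tested tendon and myotendinous junction markers, 4 also lay above the control in each exercise library. Called higher were 3 in each, where 2.95% of all tested rows were in exercise control against control. With SQH against control the share of all tested rows was 1.76%. The summed level of all 8 listed markers was 10.58 with SQH, 10.82 in the exercise control and 10.004 in the control. The 3 called higher were Tnmd (tenomodulin), at 6.61 with SQH, 6.45 in the exercise control and 4.86 in the control, Fmod (fibromodulin), at 7.73, 8.03 and 6.54, and Cilp2, at 9.10, 9.32 and 7.91. Scx, the tendon transcription factor scleraxis, was called lower in the exercise control than the control (-1.18 ± 0.16), where 5.33% of all tested rows were. Mkx was listed at 0 in the control. Whether those markers have a part in the Ankrd1 and Mustn1 values was not tested.

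The secreted CCN genes showed the widest differences of the set. Cyr61 stood at 10.93 in the exercise plus SQH library, 6.50 in the exercise control library and 10.56 in the control library. The exercise control stood apart, and the other two libraries differed by 0.36 ± 0.05. Cyr61 was 16.7-fold lower in the exercise control than the control (-4.06 ± 0.17), the 9th lowest difference of the 7857 rows. With SQH it was 21.5-fold higher than in the exercise control (4.43 ± 0.17), the 8th highest. These values rested on about 2540 reads with SQH, 76.0 in the exercise control and 1609 in the control.

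Ctgf stood at 12.36 in the exercise plus SQH library, 9.55 in the exercise control library and 10.66 in the control library. It was lowest in the exercise control, as Cyr61 was, but its highest level, with SQH, lay well above the control. The differences were -1.11 ± 0.07 for exercise control against control, 2.80 ± 0.06 for exercise plus SQH against exercise control and 1.69 ± 0.04 for exercise plus SQH against control, all of them called. The counting interval for exercise control against control was -1.24 to -0.98 and reached inside the 2-fold limit. With SQH the level was 6.99-fold that of the exercise control and 3.24-fold that of the control. Ctgf (chromosome 10, 24595442 to 24598683) shares 665 exonic bases with Gm15270 on the opposite strand, and how strand was handled is not given in the sources used here. Cyr61 lies on chromosome 3 (145646976 to 145649981) with no annotated gene overlapping it.

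The other CCN genes were too low to be tested. Nov stood at 5.02, 5.91 and 5.84 and Wisp1 at 5.08, 5.64 and 4.23 in exercise plus SQH, exercise control and control. Wisp2 was listed at 0, 0 and 2.26 and Wisp3 at 0 in all 3. Markers of other cell types were measured beside them. Of 7 tested endothelial markers 0 were called at 2-fold in the 3 comparisons. Of all tested rows, at most 5.68% were called higher and 5.33% lower in any of the 3. The largest endothelial difference was that of the receptor gene Kdr (0.77). The summed endothelial level was 12.29 with SQH, 12.52 in the exercise control and 12.48 in the control. The fibroblast sum was 13.67, 13.98 and 13.42 and the smooth muscle and pericyte sum 12.68, 12.89 and 13.32 in the same libraries. Called among these were the collagen gene Col1a1, higher in the exercise control than the control (1.28 ± 0.04), Fbn1 (fibrillin), higher with SQH than in the exercise control (1.08 ± 0.09), the pericyte gene Rgs5, lower than the control in both exercise libraries, and Lmod1 (leiomodin), highest in the exercise control. The leukocyte sum (7.77, 6.54 and 7.10) and the adipocyte sum (12.34, 11.78 and 12.03) were lowest in the exercise control, and the endothelial, fibroblast and smooth muscle and pericyte sums were not. Of 8 leukocyte markers 0 passed the minimum level, and of 8 adipocyte markers 3 did. The slow-fibre sum (18.76, 15.59 and 19.10) was also lowest in the exercise control. The part of these cell types in the Cyr61 and Ctgf values was not tested. Fewer cells of a type and less RNA per cell cannot be told apart in bulk muscle.

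**Figure D2:**
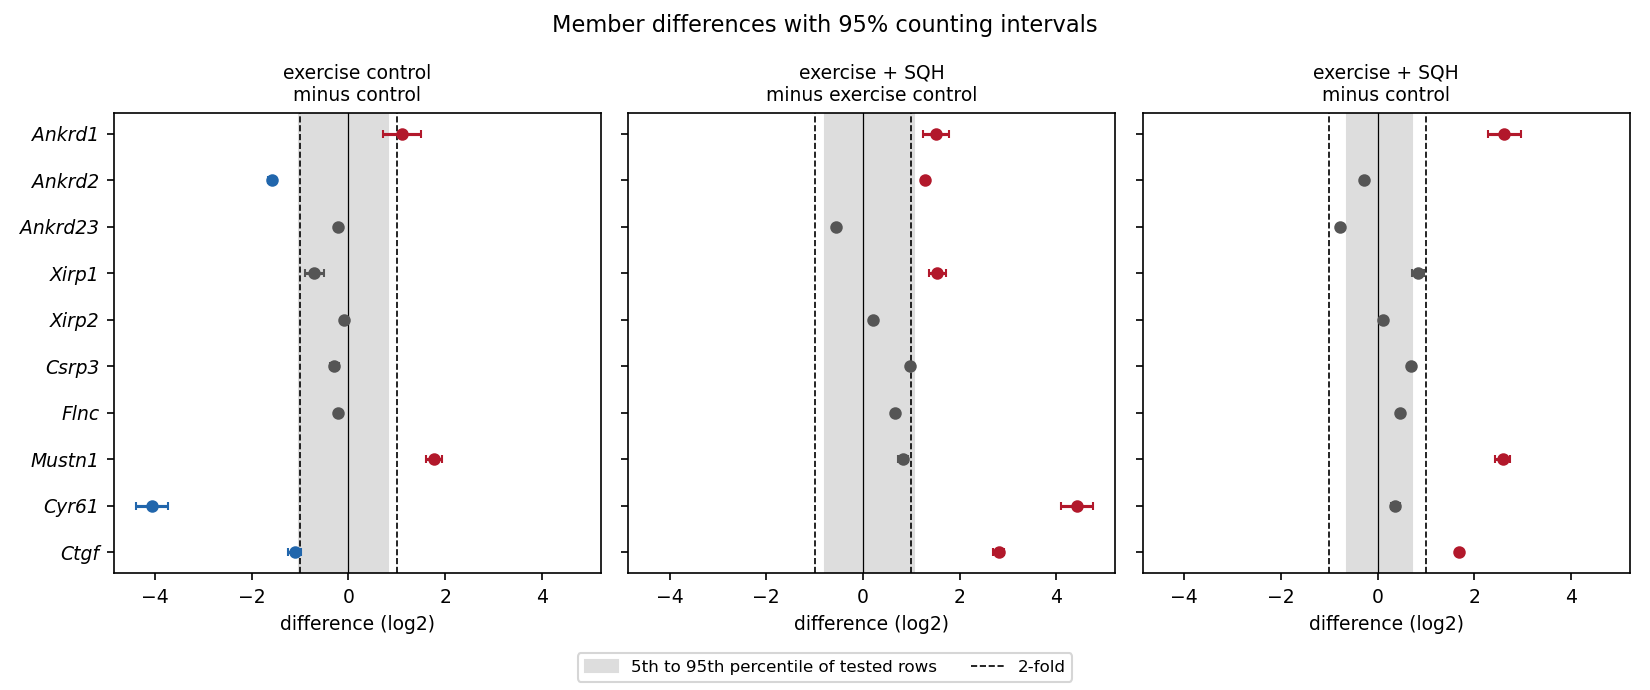
Log2 difference of each member (horizontal axis) in the 3 comparisons, with 95% counting intervals. Red points were called higher and blue ones lower at the 2-fold limit (dashed), and the grey band spans the 5th to 95th percentile of the 7857 tested rows. Cyr61 lay at -4.06, 4.43 and 0.36.

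Exercise control against control addresses exercise without SQH. Of the 10 members 2 were called higher (Ankrd1 and Mustn1), where 2.95% of tested rows were, and 3 were called lower (Ankrd2, Cyr61 and Ctgf), where 5.33% were. The median member difference was -0.25, beside -0.045 over all tested rows. Of the 10, 2 lay above 0 and 8 below it, where 46.3% of tested rows lay above 0. The 232 rows called higher and 419 called lower became 293 and 348 under upper quartile scaling, with no change in the members called.

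Exercise plus SQH against exercise control asks what the treatment added to exercise. The 5 members called higher were Ankrd1, Ankrd2, Xirp1, Cyr61 and Ctgf, against 5.68% of tested rows, and 0 were called lower, against 2.33%. The median was 1.14 beside 0.026 over all tested rows. Above 0 lay 9 of 10 members, the exception being Ankrd23, and 52.1% of tested rows. The 446 rows called higher and 183 called lower became 356 and 252 when each library was centred on its median, and the same 5 members were called. This comparison and the one before it share the exercise control library, which was the lowest library for 7 of the 10 members and for 40.1% of tested rows.

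Exercise plus SQH against control does not involve that library. The 3 members called higher were Ankrd1, Mustn1 and Ctgf, against 1.76% of tested rows, and 0 were called lower, against 1.26%. The median was 0.57 beside -0.015 over all tested rows, with 8 of 10 members and 48.7% of tested rows above 0. The SQH library was the highest for 8 of the 10 members and for 31.3% of tested rows. Of these 8, 6 had the order exercise plus SQH, control, exercise control, found in 1510 tested rows (19.2%). The other 2 had the order exercise plus SQH, exercise control, control, found in 951 (12.1%). The order of the 6 was thus also the commoner one among all tested rows highest with SQH.

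**Figure D3:**
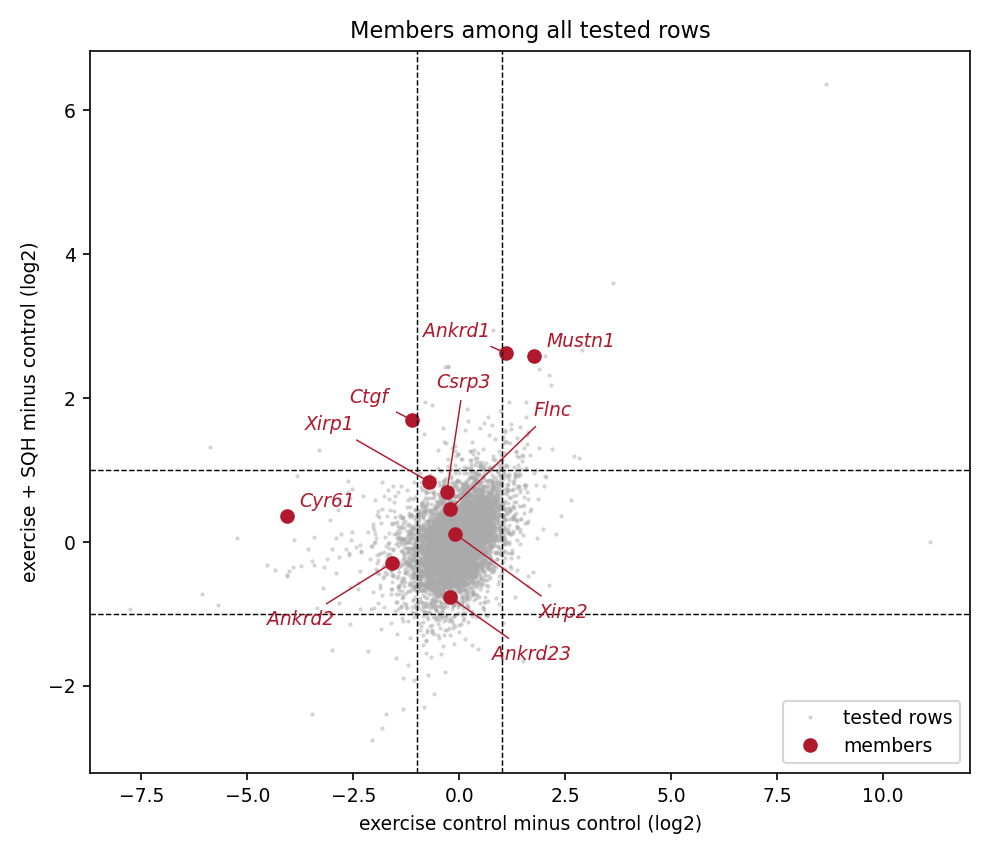
Each tested row by its log2 difference between exercise control and control (horizontal axis) and between exercise plus SQH and control (vertical axis), which share the control library. Grey points are the 7857 tested rows, rows listed at 0 in a library included, red points the members, and dashed lines the 2-fold limits. Ankrd1 and Mustn1 lay above both limits, Cyr61 far to the left and Ctgf at upper left.

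Of 22 further YAP and TEAD target genes 13 passed the minimum level, and their median differences were -0.17 for exercise control against control, 0.11 for exercise plus SQH against exercise control and -0.06 for exercise plus SQH against control. In exercise control against control 1 was called higher and 1 lower (2.95% and 5.33% of all tested rows), 1 was called higher in exercise plus SQH against exercise control (5.68%), and 1 in exercise plus SQH against control (1.76%). The genes called were Igfbp3 and Gadd45a. Igfbp3, which encodes a binding protein of insulin-like growth factors, stood at 7.10 with SQH, 5.84 in the exercise control and 7.70 in the control. It was lower in the exercise control than the control (-1.86 ± 0.23) and higher with SQH than in the exercise control (1.27 ± 0.23). Gadd45a, a growth arrest gene, stood at 8.24, 8.32 and 6.98 in the same libraries and was higher than the control in both exercise libraries. Amotl2, a widely used YAP target that also restrains YAP, stood at 7.21, 7.11 and 7.27, and Lats2, a Hippo kinase gene under YAP control, at 7.94, 7.38 and 7.26.

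Of 25 genes of the Hippo pathway and its YAP partners 17 were tested. The coactivator genes were called in 0 comparisons, with Yap1 at 9.32 with SQH, 8.86 in the exercise control and 8.67 in the control, and Wwtr1, which encodes TAZ, at 8.90, 8.78 and 8.80. Tead1 stood at 11.67, 11.61 and 12.20 in the same libraries. Tead2, Tead3 and Tead4 were below the minimum, at 4.09, 1.28 and 4.16, at 5.35, 4.89 and 5.37, and at 0, 1.84 and 4.56. Amotl1, an angiomotin that binds YAP, stood at 13.87 with SQH, 12.38 in the exercise control and 14.03 in the control. It was called lower in the exercise control than the control (-1.64 ± 0.02) and higher with SQH than in the exercise control (1.48 ± 0.02), and it was the only gene of the list called in the second of these comparisons. Map4k4, a kinase gene upstream of Hippo, was also lower in the exercise control than the control (-1.16 ± 0.07). Of the 17, 0 were called higher and 2 lower in exercise control against control (2.95% and 5.33% of all tested rows). In exercise plus SQH against exercise control 1 was called higher and 0 lower (5.68% and 2.33%). With SQH against control 0 of the 17 were called at 2-fold, where 1.76% of all tested rows were called higher and 1.26% lower.

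SRF and its MRTF cofactors form the other main route by which actin tension reaches muscle genes. Of their 21 listed genes 16 were tested. In exercise control against control 1 was called higher and 2 lower (2.95% and 5.33% of all tested rows). In exercise plus SQH against exercise control 3 were called higher and 0 lower (5.68% and 2.33%). In exercise plus SQH against control 1 was called higher and 1 lower (1.76% and 1.26%). Srf stood at 9.45 with SQH, 8.27 in the exercise control and 8.67 in the control, and was called higher with SQH than in the exercise control (1.18 ± 0.10). Fhl2, a LIM protein gene of the titin spring, stood at 8.22, 5.54 and 8.07 in the same libraries. It was lower in the exercise control than the control (-2.54 ± 0.25) and higher with SQH than in the exercise control (2.68 ± 0.24). Actc1, the cardiac actin gene, stood at 8.61, 7.52 and 11. It was below the control with SQH (-2.39 ± 0.07) and in the exercise control (-3.48 ± 0.12), and higher with SQH than in the exercise control (1.10 ± 0.13). Vcl, vinculin of the costamere, was higher in the exercise control than the control (1.15 ± 0.12), and Fos higher with SQH than in the control (1.02 ± 0.24). The counting intervals of these differences, 0.91 to 1.39 for Vcl and 0.55 to 1.49 for Fos, held values below the 2-fold limit. The list medians were -0.04, 0.20 and 0.15 in the 3 comparisons.

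Of 35 genes listed for the titin spring and Z-disc, 32 were tested. In exercise control against control 2 were called higher and 6 lower, where 2.95% and 5.33% of all tested rows were. In exercise plus SQH against exercise control 3 were called higher and 0 lower, where 5.68% and 2.33% of all tested rows were. In exercise plus SQH against control 0 were called, where 1.76% of all tested rows were called higher and 1.26% lower. Among the lower genes were Myoz2, the calsarcin of slow fibres (-2.05 ± 0.03), the chaperone genes Hspb7 (-1.34 ± 0.06) and Cryab (-1.14 ± 0.03), the enigma family gene Pdlim5 (-1.17 ± 0.04), and Synpo2l (-1.13 ± 0.13) and Synpo2 (-1.11 ± 0.11) of the synaptopodin family. Myoz2 (1.99 ± 0.03), Cryab (1.51 ± 0.03) and Pdlim5 (1.33 ± 0.04) were the 3 higher with SQH than in the exercise control. Trim63, a ubiquitin ligase gene of the M-band (1.06 ± 0.04), and Myoz1, the calsarcin of fast fibres (1.01 ± 0.02), were higher in the exercise control than the control. Titin itself, Ttn, stood at 18.08 with SQH, 18.27 in the exercise control and 18.56 in the control.

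Of 29 costamere, integrin and mechanosensor genes 26 were tested and 3 were called. In exercise control against control 1 was called higher and 2 lower, where 2.95% and 5.33% of all tested rows were. In exercise plus SQH against exercise control 2 were called higher and 1 lower, where 5.68% and 2.33% were. Itgb6 (-1.52 ± 0.19) and Lims1, the adaptor PINCH (-1.36 ± 0.12), were lower in the exercise control than the control and higher with SQH than in the exercise control (1.17 ± 0.19 and 1.23 ± 0.12). Sorbs2, an adaptor of the Z-disc, moved the other way (1.02 ± 0.10 and -1.20 ± 0.10). With SQH against control 0 of the 26 were called, where 1.76% of all tested rows were called higher and 1.26% lower. Of 5 further ankyrin repeat genes, which lie outside the muscle ankyrin repeat family, 4 were tested and Ankrd33b was called, at 7.90 with SQH, 6.16 in the exercise control and 6.51 in the control (1.75 ± 0.20 for exercise plus SQH against exercise control and 1.39 ± 0.17 for exercise plus SQH against control). Ankrd11 stood at 10.24, 10.45 and 10.68, Ankrd12 at 9.23, 8.44 and 9.06, Ankrd39 at 6.36, 5.29 and 5.82 and Ankrd40 at 10.16, 9.74 and 10.04 in the same libraries, Ankrd39 being below the minimum level.

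**Figure D4:**
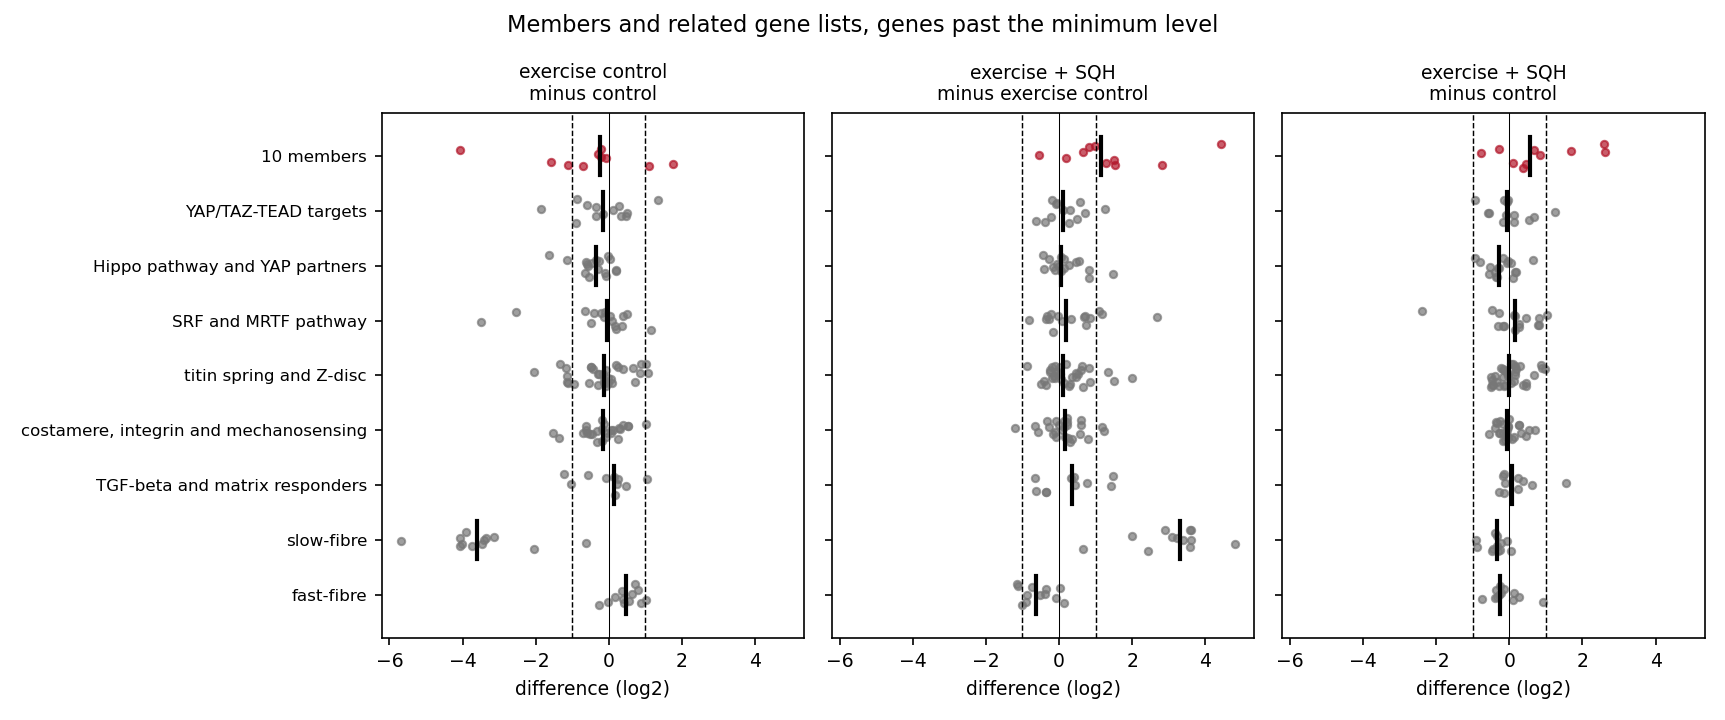
Log2 difference of each gene past the minimum level (points) and list median (black bar) for the 10 members and related lists in the 3 comparisons, dashed lines marking 2-fold. The medians of the YAP target list were -0.17, 0.11 and -0.06, while that of the slow-fibre list was -3.61, 3.31 and -0.34.

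Libraries differed in more than these genes. In exercise control against control 2.95% of all tested rows were called higher and 5.33% lower. The shares were 5.68% and 2.33% in exercise plus SQH against exercise control. All 12 slow-fibre and all 12 fast-fibre markers passed the minimum level. Of the slow-fibre markers 11 were called lower in the exercise control than the control and 11 higher with SQH than in the exercise control, while 0 were called with SQH against control. Those with the largest differences were Sln (sarcolipin), Tnni1, Tnnt1, Tpm3, Myh7 and Myl2, between -5.69 ± 0.22 and -3.74 ± 0.05 in exercise control against control. Of the fast-fibre markers, Myoz1 was called higher in that comparison, and Myh4, Mybpc2 and Atp2a1 were called lower with SQH against the exercise control (-1.16 ± 0.01 to -1.01 ± 0.01). Nerve and Schwann cell markers had a summed level of 10.42 with SQH, 12.12 in the exercise control and 10.29 in the control, with 5 of 5 tested markers (among them Ncmap, Mbp, S100b and Pmp22) called higher in the exercise control than the control, and the same 5 were called lower with SQH against the exercise control. Of 8 leukocyte markers 0 reached the minimum level, with Ptprc and Cd14 listed at 0 in the exercise control and Adgre1 with SQH. The part of these differences in the member values of exercise control against control and of exercise plus SQH against exercise control was not tested. In exercise plus SQH against control, 0 slow-fibre and 0 nerve markers were called, where 1.76% of all tested rows were called higher and 1.26% lower. Called higher were 3 of 5 tested tendon markers, Cfd of the adipocyte list and Cdh15 of the satellite cell list, and Rgs5 was called lower. The part of these genes in the Ankrd1, Mustn1 and Ctgf values was not tested.

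The genes of most similar pattern were sought for Ankrd1 and Cyr61 among 7464 named rows, by the distance between their log2 differences in exercise control against control and exercise plus SQH against control. Nearest to Ankrd1 were Nrgn, which encodes the calmodulin-binding neurogranin (distance 0.44), Mustn1 (0.66) and Maff, a small MAF transcription factor gene (0.68). Nrgn stood at 7.25 with SQH, 5.11 in the exercise control and 4.30 in the control, and Maff at 7.28, 6.51 and 5.33. Nrgn rested on about 29.0 reads in the exercise control and 21.0 in the control. Its counting interval for exercise control against control was wide, -0.001 to 1.62, and it was not called there. Nearest to Cyr61 were Sbk3, a kinase gene (0.37), Sdhd, a subunit gene of succinate dehydrogenase (0.60), and Arhgap24, a gene of a GTPase-activating protein (0.67). They stood at 3.26, 5.86 and 4.78 in the exercise control, against 7.16, 9.69 and 8.35 in the control, and at 7.19, 10.60 and 8.26 with SQH. Sbk3 rested on about 8.05 reads in the exercise control. With 3 libraries only 2 differences define a pattern, and shared function was not examined.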

How the data were processed

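RNA of mouse skeletal muscle was extracted with Trizol and made into Lexogen QuantSeq 3' libraries, per the labels' protocols. Bowtie2, edgeR and the build mm10 appear in the submitters' processing notes, without versions or roles. The read counter, annotation and any filter were not given in the sources used here. The authors deposited 1 file per library with a log2 value per gene. The headers name no unit, which was therefore read from the values. Low linear values bunch near multiples of 0.766 (exercise plus SQH), 1.19 (exercise control) and 0.939 (control), as library-size-adjusted counts would, and dividing by this step gave approximate reads. Of linear values up to 9, 84.4% in the SQH library and 95.7% in the exercise control library lay within 0.2 step of a multiple, so no count model was fitted.

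Groups came from the sample titles. The members, the lists and the rules were chosen with earlier results of these data known. All 10 members are named. From the other lists up to 6 called genes per comparison are named, or the 1 with the largest difference where a list had none called, and the rules also name the family members, the YAP, TAZ and TEAD genes and the 3 rows nearest to Ankrd1 and Cyr61. Amotl2, Lats2 and Ttn were added as examples after their values were seen. Some genes that the rules name are not reported here. The planned size rule was applied, since the files hold normalized values. It was tested on simulated counts that had counting noise alone and planted changes well beyond the 2-fold limit. That test does not address variation between animals or preparations, or changes near the limit. Counting intervals use a 95% normal range of the log ratio of 2 Poisson counts. Promoter windows are RefSeq's (GRCm38.p6) and positions GENCODE M21's. Python 3.11.15, numpy 2.4.6, pandas 2.3.3 and matplotlib 3.10.9 were used.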

Additional observations from a re-analysis of the deposited data

How the results depend on the processing

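Alternatives were median centring, quantile normalization, upper quartile scaling, a trimmed mean of log ratios, a pseudocount of 4, no minimum level, a minimum at the 75th percentile, and limits of 1.5-fold and 4-fold. Under the 4 scalings, the pseudocount and no minimum level, the members called were those reported in all 3 comparisons. The stricter minimum removed Ankrd1, leaving 1 member higher in exercise control against control. At 1.5-fold, 8 members were higher in exercise plus SQH against exercise control, and in exercise plus SQH against control 5 were higher and 1 (Ankrd23) lower. At 4-fold, 2 members (Cyr61 and Ctgf) were higher in exercise plus SQH against exercise control, and in exercise control against control 0 were higher and 1 (Cyr61) lower. The median member difference became 1.04 in exercise plus SQH against exercise control with centring, and 0.69 in exercise plus SQH against control with quantile normalization. Of 30 member differences, 29 kept their sign under the 4 scalings and the pseudocount, the exception being Xirp2, and none moved by more than 0.19. Over all tested rows, the calls higher and lower in exercise control against control (232 and 419 as reported) were 1841 and 2418 with no minimum, 75 and 158 at the stricter one, 796 and 1216 at 1.5-fold and 16 and 68 at 4-fold. Those in exercise plus SQH against exercise control (446 and 183) were 2558 and 1638, 166 and 52, 1159 and 729, and 79 and 12 in the same order, and those in exercise plus SQH against control (138 and 99) were 1872 and 1495, 36 and 22, 582 and 500, and 13 and 7. No library can be left out, with 1 per group. No paired analysis was possible because each group has 1 library. Depth limits Ankrd1 in the control and Cyr61 in the exercise control, which rest on about 80.9 and 76.0 reads.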

Other observations

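Of 15 genes that respond to TGF-beta or belong to its pathway, 10 were tested. In exercise control against control 1 was called higher and 2 lower (2.95% and 5.33% of all tested rows). In exercise plus SQH against exercise control 2 were called higher and 0 lower (5.68% and 2.33%). In exercise plus SQH against control 1 was called higher and 0 lower (1.76% and 1.26%). Postn, the matrix protein periostin, stood at 7.23 with SQH, 5.80 in the exercise control and 5.66 in the control. It was higher with SQH than in the exercise control (1.43 ± 0.23) and the control (1.56 ± 0.22). Tgfbr1, a receptor gene, was lower in the exercise control than the control (-1.04 ± 0.24), and Skil, which encodes an inhibitor of SMAD signalling, was higher (1.03 ± 0.17).

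Of 8 satellite cell and regeneration genes 7 were tested. In exercise control against control 0 were called (2.95% of all tested rows higher and 5.33% lower). In exercise plus SQH against exercise control 1 was called higher and 0 lower (5.68% and 2.33%), with differences down to -0.68. In exercise plus SQH against control 1 was called higher and 0 lower (1.76% and 1.26%), with differences down to -0.40. Myog, a muscle regulatory factor gene, stood at 9.83 with SQH, 8.24 in the exercise control and 9.11 in the control (1.59 ± 0.10 for exercise plus SQH against exercise control). Cdh15, the cadherin gene of satellite cells, stood at 6.79, 5.998 and 5.30 in the same libraries (1.49 ± 0.25 for exercise plus SQH against control). Of 3 tested adipocyte markers, Cidea was lower in the exercise control than the control (-1.68 ± 0.32) and higher with SQH than in the exercise control (2.39 ± 0.30), and Cfd (adipsin) was higher with SQH than in the exercise control (1.25 ± 0.20) and the control (1.22 ± 0.19). Lep was listed at 0 in all 3 libraries, and Retn and Cidec in the exercise control. Among YAP targets below the minimum level, F3, which encodes tissue factor, stood at 6.19 with SQH, 3.58 in the exercise control and 5.74 in the control, and Nt5e, a nucleotidase gene, at 4.70, 0.31 and 3.99. F3 and Nt5e were chosen after their values were seen, and rest on about 10.1 and 1.04 reads in the exercise control. The other listed targets below the minimum did not all share their order. In the same libraries Birc5 stood at 4.2, 0 and 3.99, Nuak2 at 1.16, 0.31 and 2.71, and Dock5 at 4.42, 4.25 and 4.49. Tgfb1i1 stood at 5.75, 5.25 and 5.23, Ajuba at 3.07, 3.43 and 3.71, Fjx1 at 4.66, 0 and 0, and Foxf2 at 0, 1.14 and 0.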
